A study of Mus musculus with 16 samples.

Results

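Complex I (NADH:ubiquinone oxidoreductase) is the entry point of electrons into the mitochondrial respiratory chain, and most of its subunits are made from nuclear genes. The genes described here were chosen by name alone: every gene whose symbol is Ndufa, Ndufb, Ndufc, Ndufs or Ndufv followed directly by a digit, plus Ndufab1, without pseudogene names and with a mean normalized value of at least 10 over the 16 libraries. All 38 genes that met the name rule passed this minimum, out of 39017 genes in the table, of which 14814 passed it. The assembly factors of the Ndufaf series were outside the rule. Of the 38 members, Ndufa4 and Ndufa4l2 carry complex I names, but later biochemical work placed the Ndufa4 protein in complex IV. The main counts by genotype and by tissue are therefore also given for the 36 others.

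The study sequenced poly-A RNA from micro-dissected brain tissue of Cdh2 H150Y knock-in mice, which carry a human ADHD-associated substitution in N-cadherin. Libraries came from the prefrontal cortex (PFC) and the ventral midbrain (vMB), with 4 WT and 4 Mutant libraries in each tissue and 16 in all. Mutant mice were homozygous for Cdh2 H150Y, WT mice carried no knock-in allele, and all were C57BL/6JRcc males aged 13 weeks. The knock-in was made by CRISPR/Cas9 in the germline, and mice of this age had been through behavioural tests and were perfused with saline and formaldehyde before dissection. The study made 2 founder lines of the knock-in, and neither the labels nor the methods say which line a library came from. The sources do not state that each library came from its own mouse (4 title codes occur in both tissues, with a meaning that is not given), so the p-values reflect no more than the spread among these libraries, which may be technical.

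Complex I takes electrons from NADH and passes them along a chain of iron-sulfur clusters to ubiquinone, and it uses the energy released to pump protons across the inner mitochondrial membrane. Its hydrophilic arm holds an N module, where NADH is oxidized, and a Q module, where ubiquinone is reduced. Its membrane arm, with a proximal and a distal part, moves the protons. The core subunits carry out catalysis, some of them encoded by mitochondrial DNA, whereas the accessory subunits surround them and serve assembly and stability. Neurons depend heavily on oxidative phosphorylation, and dopamine neurons of the ventral midbrain are known to be sensitive to complex I inhibitors such as rotenone and MPP+.

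Across the series, the summed normalized value per library ranged from 8687620 to 10026466. The tissues matched their labels: the summed value of 5 cortical excitatory neuron markers was 17727 to 19385 in the WT PFC libraries and 959 to 2572 in the WT vMB libraries, and that of 6 dopamine neuron markers was 218 to 299 and 1924 to 2617, respectively. No marker of the 9 cell type lists was at 0 in all libraries. The gene-level values do not show which Cdh2 allele a library carries. Whether reads were counted by strand is not stated, and 20 members overlap another annotated gene, for example Ndufs6 with Mrpl36, Ndufb5 with Mrpl47 and Ndufa3 with Tfpt. Overlap was taken over whole gene spans, introns included, on either strand. Reads from stretches that both genes share cannot be told apart, and how many there were is not known. Ndufa2, Ndufb2, Ndufb5, Ndufb9, Ndufb11 and Ndufc2, which were higher in the vMB of Mutant mice (below), are among the 20.

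The name rule did not use sequence, so the promoters were looked at next. RefSeq promoter sequences (GRCm38.p6, 250 bases before to 50 bases after a transcription start) were on hand for 33 of the 38 members. They were searched on both strands for short cores of the motifs bound by NRF1 (CGCANGCG) and YY1 (AANATGGCG) and by the ETS family (CCGGAAG), whose factors are known to act on nuclear genes for mitochondrial proteins. The NRF1 core occurred in 10 of 33 members (30.3%) and in 9.22% of all 27025 genes in the promoter table. The YY1 motif occurred in 7 of 33 members (21.2%) and in 2.76% of all genes. The ETS motif occurred in 4 of 33 members (12.1%) and in 9.93% of all genes. None of the 3 motifs contains another, and a match is a description of the letters, not a bound site.

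Of the 12 members that were higher in the vMB of Mutant mice, 10 were in the promoter table and 5 of these held a motif. These 5 are printed 5′ to 3′ on the strand of the gene, with Ndufs6 as an example of a promoter that holds both an NRF1 core and a YY1 motif (Ndufa7 has both too), and the motif in capitals. Ndufa5 (chr6:24527641-24527940, minus strand) has the NRF1 core 25 bases before the start in the nearer of 2 windows listed for it, Ndufa6 (chr15:82354242-82354541, minus strand) has it 24 bases after, and Ndufs6 (chr13:73328433-73328732, minus strand) has it 15 bases before. Ndufs4 (chr13:114388045-114388344, minus strand) has the YY1 motif 35 bases after the start, Ndufs6 has it 33 bases after, and Ndufb11 (chrX:20617570-20617869, minus strand) has it 211 bases before. Ndufs8 (chr19:3912725-3913024, minus strand) has the ETS motif 15 bases after the start. This motif and the NRF1 cores of Ndufa6 and Ndufs6 appear as the reverse complement of the letters searched for.
Ndufa5: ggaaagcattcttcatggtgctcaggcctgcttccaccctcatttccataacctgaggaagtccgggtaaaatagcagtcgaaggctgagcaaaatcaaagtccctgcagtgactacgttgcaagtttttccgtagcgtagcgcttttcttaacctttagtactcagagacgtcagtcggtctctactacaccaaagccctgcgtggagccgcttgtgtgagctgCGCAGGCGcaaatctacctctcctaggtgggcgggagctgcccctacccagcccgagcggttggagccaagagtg
Ndufa6: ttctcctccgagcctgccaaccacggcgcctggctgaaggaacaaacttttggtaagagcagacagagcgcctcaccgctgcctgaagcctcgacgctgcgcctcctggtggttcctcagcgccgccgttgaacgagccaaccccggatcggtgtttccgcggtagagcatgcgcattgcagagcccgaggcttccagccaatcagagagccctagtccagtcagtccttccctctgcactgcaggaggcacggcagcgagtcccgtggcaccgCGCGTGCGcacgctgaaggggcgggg
Ndufs6: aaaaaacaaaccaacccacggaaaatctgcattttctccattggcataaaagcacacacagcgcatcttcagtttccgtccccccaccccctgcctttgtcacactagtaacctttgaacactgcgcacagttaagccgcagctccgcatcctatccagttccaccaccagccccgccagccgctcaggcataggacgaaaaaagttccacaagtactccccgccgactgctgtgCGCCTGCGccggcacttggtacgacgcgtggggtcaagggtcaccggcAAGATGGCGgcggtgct
Ndufs4: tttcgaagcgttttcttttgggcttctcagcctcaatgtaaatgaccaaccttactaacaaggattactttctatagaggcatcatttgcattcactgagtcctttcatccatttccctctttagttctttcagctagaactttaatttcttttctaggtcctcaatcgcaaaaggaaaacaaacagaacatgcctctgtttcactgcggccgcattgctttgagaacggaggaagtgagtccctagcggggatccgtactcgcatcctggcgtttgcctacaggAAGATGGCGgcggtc
Ndufb11: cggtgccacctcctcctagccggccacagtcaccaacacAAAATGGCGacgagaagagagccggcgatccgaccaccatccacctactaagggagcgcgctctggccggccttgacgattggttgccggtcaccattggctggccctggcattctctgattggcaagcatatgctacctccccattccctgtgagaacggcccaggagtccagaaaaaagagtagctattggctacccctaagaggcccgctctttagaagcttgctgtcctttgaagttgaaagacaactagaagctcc
Ndufs8: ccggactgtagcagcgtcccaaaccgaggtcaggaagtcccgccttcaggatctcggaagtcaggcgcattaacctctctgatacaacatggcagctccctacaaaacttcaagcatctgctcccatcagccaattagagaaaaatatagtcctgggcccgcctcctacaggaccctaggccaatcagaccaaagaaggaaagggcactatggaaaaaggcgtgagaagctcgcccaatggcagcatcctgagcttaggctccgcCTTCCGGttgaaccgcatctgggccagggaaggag

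Split by the genotype test in the vMB, the NRF1 core was in 2 of the 10 members with a promoter that passed (Ndufa5 and Ndufa6) and in 8 of the 23 that did not. The YY1 motif was in 2 of 10 (Ndufb11 and Ndufs4) and in 5 of 23, respectively, and the ETS motif was in 1 of 10 (Ndufs8) and in 3 of 23. No test was made of these counts.

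To ask whether the knock-in altered complex I transcripts, Mutant and WT libraries were compared within each tissue on log2(normalized value + 1). To pass, a gene needed a fold of 1.3 or more and an adjusted p no higher than 0.05 (limma across all 14814 genes, 2-sided, Benjamini-Hochberg adjustment over all of them), the thresholds the study's methods name. In the vMB, 12 of the 38 members were higher in Mutant mice and 0 were lower, where 1.23% of all tested genes passed as higher. The 12 were Ndufa1, Ndufa2, Ndufa4, Ndufa5, Ndufa6, Ndufb2, Ndufb5, Ndufb9, Ndufb11, Ndufc2, Ndufs4 and Ndufs8, with log2 fold changes from 0.39 to 0.54. Without Ndufa4 and Ndufa4l2, 11 of 36 passed. With no minimum fold, 24 of 38 passed as higher, against 3.1% of all genes. The fitted change was positive in 36 of the 38, with a median log2 fold change of 0.35 against -0.01 over all genes. In 22 of the 38, the lowest Mutant library lay above the highest WT library, which held for 7.82% of all genes. An exact permutation test over the 70 groupings of the 8 libraries gave each of these 22, the 12 included, a p of 0.0286, the smallest it can give. Any gene whose groups do not overlap gets this p, so it restates the separation and adds no support.

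**Figure D1:**
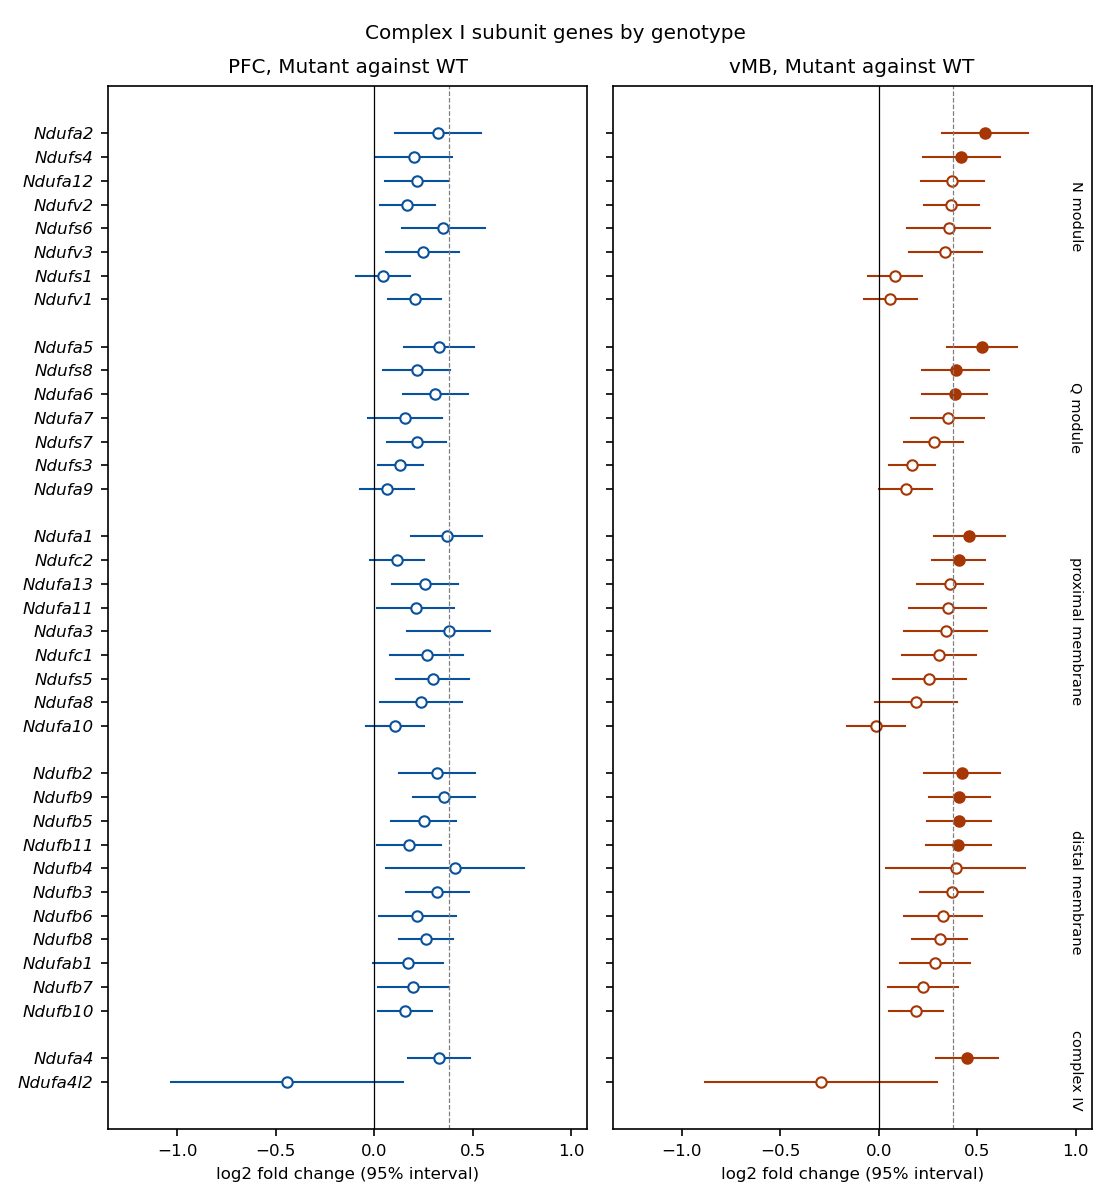
Log2 fold change of 37 of the 38 members, Mutant against WT, in the PFC (left) and the vMB (right), with 95% intervals from limma on 4 and 4 libraries and members grouped by module. Filled points passed (12 in the vMB, 0 in the PFC), the dashed line marks a 1.3-fold difference, and Ndufa4l2 is the member with the lowest estimate in both tissues.

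In the N module, 2 of 8 members passed in the vMB, both accessory subunits. Ndufa2 encodes a small subunit with a thioredoxin-like fold. In the vMB its normalized values were 343, 340.4, 329.5 and 290.1 in the WT libraries and 387, 522, 490.1 and 503 in the Mutant libraries. The groups did not overlap, although Mutant 1 stood well below the other 3 Mutant libraries. The log2 fold change was 0.54 (SE 0.10; adjusted p = 0.00765), a value 46.1% higher. This was the largest fitted change of any member. Ndufs4 (chr13:114287795-114388258) encodes the subunit whose loss in mice causes a Leigh-like brain disease. The vMB libraries of WT mice gave normalized values of 431, 408, 397 and 323, and those of Mutant mice gave 477, 514, 509 and 579. WT 4 was the lowest of the 8 libraries and Mutant 4 the highest. This amounted to a rise of 33.3%, with a log2 fold change of 0.42 (SE 0.09; adjusted p = 0.0140). The other 6 N module members had log2 fold changes from 0.06 (Ndufv1) to 0.37 (Ndufa12).

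In the Q module, 3 of 8 members passed. Ndufa5 (chr6:24518666-24528013) encodes an accessory subunit of the hydrophilic arm. Ndufa5 was at 633, 555, 530.3 and 530.2 (normalized values) in vMB WT libraries and at 693, 887, 816 and 842 in vMB Mutant libraries. No WT library reached the Mutant group, and WT 1 was the highest of the WT group. Levels were 44.0% higher in Mutant libraries, a log2 fold change of 0.52 (SE 0.08; adjusted p = 0.00369). Ndufa6 (chr15:82350140-82354322) encodes a LYR-motif protein that binds the mitochondrial acyl carrier protein. In the vMB its normalized values were 889, 791, 783 and 723 in the WT libraries and 907, 1111, 1051 and 1096 in the Mutant libraries. The gap between the groups was narrow, since WT 1 lay just below Mutant 1. The log2 fold change was 0.39 (SE 0.08; adjusted p = 0.00988), a value 30.7% higher. Ndufs8 (chr19:3908863-3912774) encodes a core subunit that carries iron-sulfur clusters on the path to ubiquinone. The vMB libraries of WT mice gave normalized values of 762, 733, 655 and 638, and those of Mutant mice gave 821, 990.4, 869 and 975. The groups did not overlap, with Mutant 1 again the lowest of its group. This amounted to a rise of 31.1%, with a log2 fold change of 0.39 (SE 0.08; adjusted p = 0.0106). Among those that did not pass, Ndufa9 had 0.14 and Ndufa7 0.35 on the log2 scale.

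In the proximal membrane arm, 2 of 9 members passed. Ndufc2 (chr7:97400003-97407802) encodes a small membrane subunit. Ndufc2 was at 959, 920.0, 856 and 912 (normalized values) in vMB WT libraries and at 1084, 1234, 1216 and 1303 in vMB Mutant libraries. No library of either group reached the other group. Levels were 32.6% higher in Mutant libraries, a log2 fold change of 0.41 (SE 0.06; adjusted p = 0.00369). Ndufc2 had the smallest p of the 38 members in the vMB. Ndufa1 (chrX:37187588-37191163) is X-linked and encodes a single-pass membrane subunit needed for assembly. In the vMB its normalized values were 441, 396, 373 and 407 in the WT libraries and 486, 622, 525 and 601 in the Mutant libraries. Mutant 2 and Mutant 4 were the highest libraries. The log2 fold change was 0.46 (SE 0.09; adjusted p = 0.00653), a value 38.1% higher. Ndufa10, a subunit related to nucleoside kinases, lay at the other end of this group: its means were 1348 ± 111 in WT and 1333 ± 96.0 in Mutant libraries, a log2 fold change of -0.02 (SE 0.07; adjusted p = 0.940), and the groups overlapped. Its sign turned under rescaling to the same upper quartile and without WT 1 or Mutant 4.

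In the distal membrane arm, 4 of 11 members passed. Ndufb9 (chr15:58933756-58939488) encodes a LYR-motif subunit. The vMB libraries of WT mice gave normalized values of 1021, 1101, 1119 and 956, and those of Mutant mice gave 1248, 1404, 1403 and 1525. The groups did not overlap, and WT 4 and Mutant 4 were the extremes. This amounted to a rise of 33.0%, with a log2 fold change of 0.41 (SE 0.07; adjusted p = 0.00616). Ndufb11 (chrX:20615326-20617619) is the other X-linked member that passed. Ndufb11 was at 1031, 913, 868 and 826 (normalized values) in vMB WT libraries and at 1114, 1241, 1157 and 1295 in vMB Mutant libraries. WT 1 came closest to the Mutant libraries. Levels were 32.1% higher in Mutant libraries, a log2 fold change of 0.40 (SE 0.08; adjusted p = 0.00751). Ndufb5 (chr3:32736990-32751566) encodes a single-pass membrane subunit. In the vMB its normalized values were 1070.1, 1001, 922 and 832 in the WT libraries and 1122, 1337, 1272 and 1334 in the Mutant libraries. WT 1 and Mutant 1 were close to each other, and the other libraries were well apart. The log2 fold change was 0.41 (SE 0.08; adjusted p = 0.00751), a value 32.4% higher. Ndufb2 (chr6:39592574-39603382) encodes a further small subunit of this arm. The vMB libraries of WT mice gave normalized values of 542, 567, 494 and 457, and those of Mutant mice gave 614, 747, 696 and 703. The highest WT and the lowest Mutant library were again the closest pair. This amounted to a rise of 34.0%, with a log2 fold change of 0.42 (SE 0.09; adjusted p = 0.0132). The other 7 ranged from 0.19 (Ndufb10) to 0.39 (Ndufb4, with means of 161 ± 27.3 and 210.0 ± 21.7 and an adjusted p of 0.181).

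Ndufa4 (chr6:11900292-11907497), counted with complex IV in later work, also passed and had the highest level per kilobase of transcript of all members. Ndufa4 was at 2168, 1878, 1917 and 1699 (normalized values) in vMB WT libraries and at 2298, 2699, 2541 and 2919 in vMB Mutant libraries. The groups did not overlap. Levels were 36.5% higher in Mutant libraries, a log2 fold change of 0.45 (SE 0.07; adjusted p = 0.00415). Its paralog Ndufa4l2 is induced by hypoxia and in the mouse brain marks pericytes. It had the lowest level of the 38, with means of 21.1 ± 5.76 and 16.9 ± 3.62 in the vMB and a log2 fold change of -0.29 (SE 0.28; adjusted p = 0.610). In the PFC its log2 fold change was -0.44 (SE 0.28; adjusted p = 0.444). Neither passed. In the vMB, 1 of 4 pericyte and smooth muscle markers (Pdgfrb) was lower in Mutant libraries, with summed levels of 1186 to 1384 in WT and 1124 to 1302 in Mutant libraries, and its part in the Ndufa4l2 value was not tested.

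**Figure D2:**
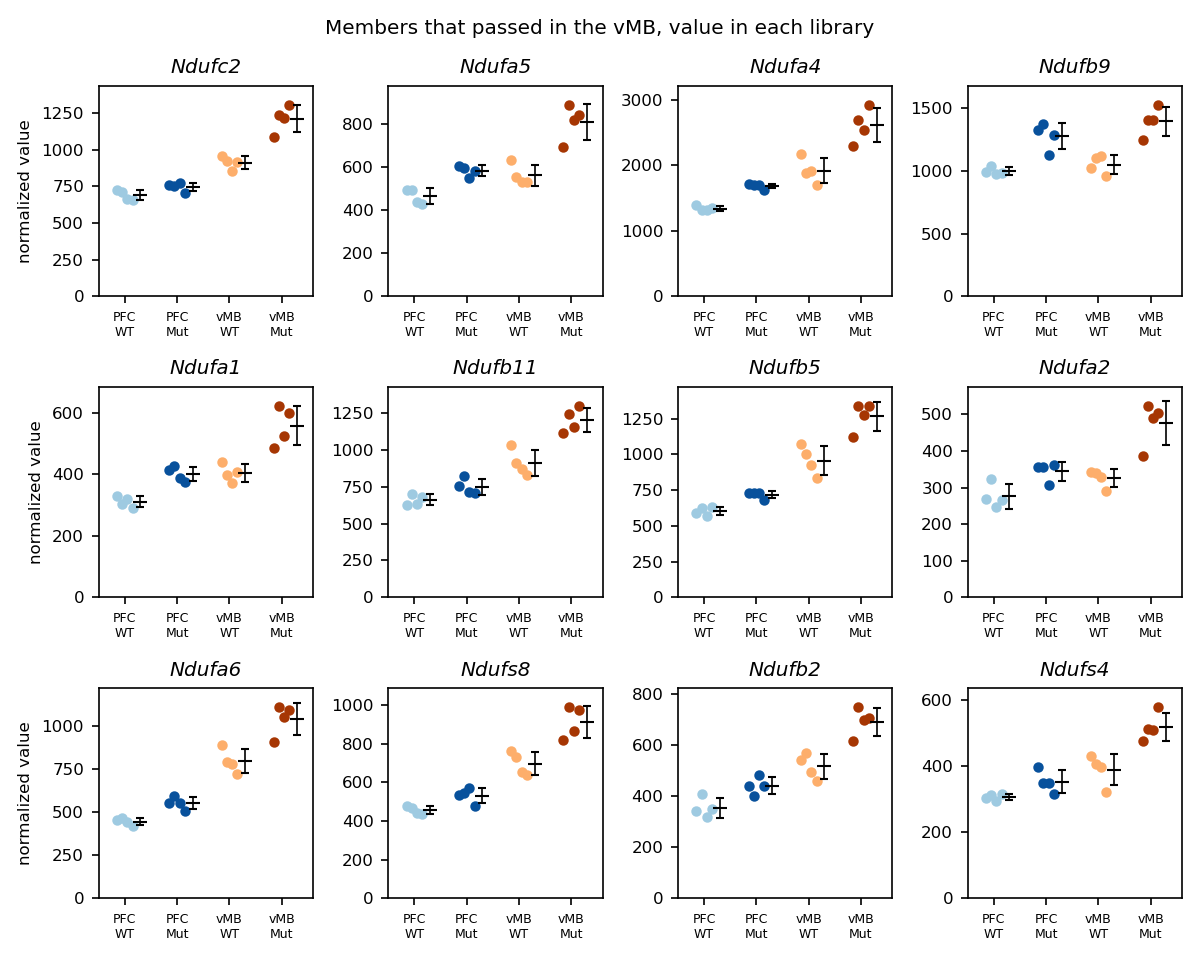
Normalized value of each of the 12 members that passed in the vMB, in each of the 16 libraries (points), with the mean and SD of each group of 4 beside them (bars), on axes that start at 0. In every panel the 4 vMB Mutant points lie above the 4 vMB WT points.

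The 7 nuclear core subunits, which hold the flavin, the iron-sulfur clusters and part of the ubiquinone pocket, had smaller fitted changes in the vMB than the accessory subunits, with 1 of 7 passing and a median log2 fold change of 0.17, against 10 of 29 and a median of 0.36. The difference between the core and accessory subunits was not tested. It was smaller with each library's trend with gene length removed (described below), with medians of 0.15 and 0.22. Over the length of 1 transcript per gene the medians were 0.08 and 0.16. Besides Ndufs8, Ndufv2 averaged 1727 ± 103 in the vMB of WT mice and 2231 ± 164 in that of Mutant mice, a log2 fold change of 0.37 (SE 0.07; adjusted p = 0.00616). This missed only the minimum fold. Ndufv2 carries an iron-sulfur cluster beside the flavin of Ndufv1. Ndufs7 averaged 875 ± 60.6 in the vMB of WT mice and 1062 ± 67.7 in that of Mutant mice, a log2 fold change of 0.28 (SE 0.07; adjusted p = 0.0269). Ndufs7 holds the last cluster before ubiquinone, and its change was also under the minimum fold. Ndufs3 averaged 764 ± 32.0 in the vMB of WT mice and 859 ± 22.8 in that of Mutant mice, a log2 fold change of 0.17 (SE 0.05; adjusted p = 0.0734). Ndufs3 is a core subunit of the Q module. Ndufs1 averaged 1395 ± 25.6 in the vMB of WT mice and 1479 ± 96.0 in that of Mutant mice, a log2 fold change of 0.08 (SE 0.06; adjusted p = 0.521). Ndufv1 averaged 1236 ± 42.2 in the vMB of WT mice and 1287 ± 36.3 in that of Mutant mice, a log2 fold change of 0.06 (SE 0.06; adjusted p = 0.663). For Ndufs1 and Ndufv1, which bind clusters and the flavin at the site of NADH oxidation, the interval of the difference ran from -0.05 to 0.22 and from -0.08 to 0.19 on the log2 scale. Both upper bounds lie below the minimum fold of 1.3.

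Summed over the 38 members, complex I transcripts took 0.382%, 0.362%, 0.352% and 0.344% of the summed normalized value in the vMB WT libraries and 0.397%, 0.450%, 0.435% and 0.449% in the Mutant libraries, with means of 0.360% ± 0.017 and 0.433% ± 0.025 (SD, n = 4 each). All Mutant libraries were above all WT libraries, and the gap between WT 1 and Mutant 1 was small. In the PFC the shares were 0.232%, 0.235%, 0.226% and 0.226% in WT and 0.264%, 0.273%, 0.271% and 0.258% in Mutant libraries, with means of 0.230% ± 0.004 and 0.267% ± 0.007. The groups did not overlap there either. These shares add up the same members as above, Ndufa4 and Ndufa4l2 included, and were not tested separately. Without these genes the vMB shares were 0.358%, 0.340%, 0.330% and 0.325% in WT libraries. In vMB Mutant libraries they were 0.371%, 0.420%, 0.406% and 0.417%.

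Single libraries decided how many members passed in the vMB. Without WT 4 or without Mutant 4 the count fell to 5 in each case, where 0.304% and 0.351% of all genes passed as higher. Without WT 1 or without Mutant 1 it rose to 21 in each case, where 1.73% and 1.72% of all genes did. Ndufa1, Ndufa2, Ndufa4 and Ndufa5 passed in all 16 fits that left out 1 library. The log2 fold changes of the 12 stayed between 0.33 and 0.63 in these fits.

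Complex I genes are short, and short and long genes behaved differently in these libraries. The median transcript of the members was 921 bases, against 3154 bases over all tested genes, and 33 of 38 members fell among the 2932 shortest transcripts, the shortest of 5 equal classes (at most 1764 bases). For each library, a slope of log2 value against log2 exon length was taken as the deviation from the mean of all libraries. It was 0.0077 ± 0.0284 in vMB WT and -0.0926 ± 0.0312 in vMB Mutant libraries (SD, n = 4 each), and 0.0846 ± 0.0200 and 0.00028 ± 0.0265 in the PFC. In both tissues Mutant libraries thus held relatively more of short transcripts. The vMB libraries with the highest member shares, Mutant 2 and Mutant 4, had the steepest slopes, -0.122 and -0.117.

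**Figure D3:**
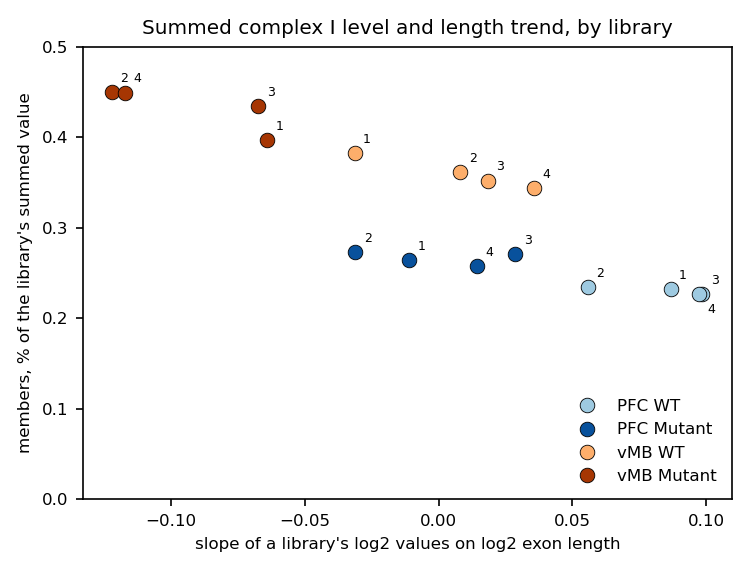
Summed value of the 38 members as a percent of each library's summed value (vertical, from 0) against the library's slope of log2 value with log2 exon length (horizontal), for 16 libraries numbered by replicate. The 4 vMB Mutant libraries have both the highest shares (0.397% to 0.450%) and the lowest slopes, and the 4 PFC WT libraries the lowest shares and the highest slopes.

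Read against short genes alone, the background was higher: among the 2932 tested genes of the shortest class, 4.98% passed as higher in the vMB and 21.3% had no overlap between groups, with a median log2 fold change of 0.18. Of the 12 members that passed, 11 were in this class. After each library's length trend was removed, 3 members passed in the vMB (Ndufab1, Ndufb2 and Ndufb5), where 0.459% of all genes and 0.819% of the shortest class passed as higher. The median log2 fold change of the members was then 0.20, and 35 of 38 stayed positive. With the trend taken over the length of 1 transcript per gene, an alternative added after seeing the data, 1 member passed (Ndufb2), where 0.23% of all genes and 0.0341% of the shortest class did. The median was then 0.14 and 31 of 38 were positive. Transcript lengths are those of 1 annotated transcript per gene, the longest tagged as principal, which need not be the one these tissues use. By this annotation Ndufb2 has the longest transcript of the members, 4371 bases, and Ndufab1, the acyl carrier protein, has 3479 bases. Neither is in the shortest class, so the shares of that class are no background for them. In the vMB the median log2 fold change of tested genes was -0.07 in the length class around 4482 bases and 0.27 around 663 bases. How far the passes of Ndufb2 and Ndufab1 depend on the length assigned was not tested. Ndufb5 was the only member of that class to pass once the trend over exon length was removed. Over the length of 1 transcript per gene, Ndufb5 did not pass either. Among the members, the log2 fold change in the vMB had a Pearson r of -0.28 with log2 transcript length (n = 38 genes of the same libraries).

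**Figure D4:**
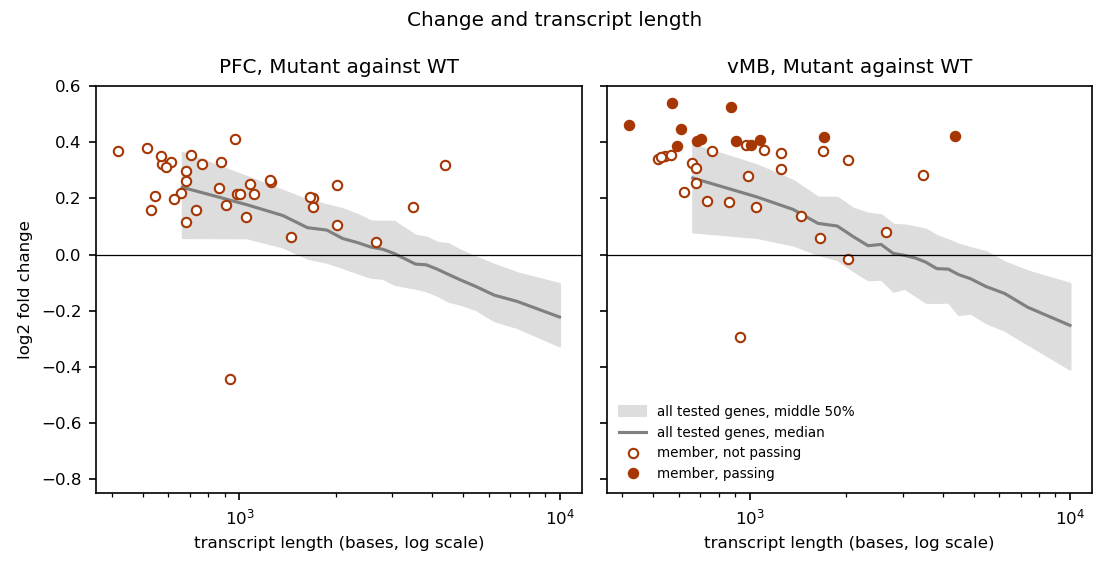
Log2 fold change, Mutant against WT, against transcript length (log axis) in the PFC (left) and the vMB (right). Open and filled points are 37 of the 38 members without and with a pass, and the grey line and band are the median and the middle 50% of all tested genes in 20 length classes. In the vMB all 12 filled points lie above the grey line, where the 1.3-fold minimum for a pass alone places them. Ndufa4l2 is the lowest point in both panels.

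In the PFC, 0 of the 38 members passed, and 0.0473% of all genes passed as higher. The fitted change was positive in 37 of 38, with a median log2 fold change of 0.22 against -0.01 over all genes. At an unadjusted p below 0.05 there were 30 members, against 17.1% of all genes (limma, counted in either direction). In 23 members the groups did not overlap with Mutant higher, against 4.23% of all genes and 14.0% of the shortest length class, whose median log2 fold change was 0.15. For these 23 the exact permutation test gave the same smallest p of 0.0286, which again only restates that the groups did not overlap. With the length trend removed, the median over the members was 0.14, or 0.10 with the length of the principal transcript.

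The member with the smallest adjusted p was Ndufb9. Ndufb9 had values of 992, 1042, 974 and 983 in WT and 1326, 1372, 1130.5 and 1285 in Mutant libraries, a log2 fold change of 0.35 (SE 0.07; adjusted p = 0.0566). The groups did not overlap. Ndufa4 had values of 1389, 1313, 1316 and 1342 in WT and 1707, 1697, 1703 and 1629 in Mutant libraries, a log2 fold change of 0.33 (SE 0.07; adjusted p = 0.0619). The WT and the Mutant libraries were each tightly grouped. Ndufa1 had values of 330.0, 304, 319 and 289 in WT and 413, 427, 387 and 376 in Mutant libraries, a log2 fold change of 0.37 (SE 0.09; adjusted p = 0.0641). Its groups were also apart. Without Mutant 3, 2 members passed in the PFC, where 0.810% of all genes did, and without WT 2, 1 member passed, where 0.506% did. Ndufs1 had the smallest positive change, 0.04 on the log2 scale, and its sign turned without Mutant 3. By module, the median log2 fold change in the PFC was 0.21 for N, 0.19 for Q, 0.26 for the proximal and 0.25 for the distal membrane arm.

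Whether the genotype effect differed between tissues was tested directly as an interaction. No member passed, nor did any gene (0.0%), and the smallest adjusted p among the members was 0.728. At an unadjusted p below 0.05 there was 1 of the 38 members, Ndufc2, a smaller share than the 5.83% of all genes (limma). The vMB change of Ndufc2 was 0.41 on the log2 scale and that in the PFC 0.12. The intervals of the difference are wide, for example -0.06 to 0.45 for Ndufa5, so 12 passing members in the vMB and 0 in the PFC do not show that the tissues differed.

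Averaged over both tissues, 6 of 38 members passed as higher in Mutant mice and 0 as lower, against 0.945% of all genes and 3.75% of the shortest class. They were Ndufa1 (0.41 on the log2 scale), Ndufa2 (0.43), Ndufa4 (0.39), Ndufa5 (0.43), Ndufb4 (0.40) and Ndufb9 (0.38). Without Ndufa4 and Ndufa4l2, 5 of 36 passed. With no minimum fold, 31 of 38 passed, against 6.34% of all genes, and the median log2 fold change was 0.29. Among those that did not were Ndufa4l2, Ndufa8, Ndufa9, Ndufa10 and the core subunits Ndufs1 and Ndufv1. Without vMB WT 4 or vMB Mutant 4 the count of 6 fell to 3, where 0.614% and 0.587% of all genes passed as higher, and without vMB Mutant 1 it rose to 10, where 1.32% did. After removal of the length trend, 1 member passed, where 0.297% of all genes did, and the median was 0.16.

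Among WT mice, the level of complex I transcripts was compared between tissues. In the vMB 25 of 38 members were higher than in the PFC and 0 were lower, against 22.0% of all genes that passed as higher, and the estimate was positive in 37 of 38. Without Ndufa4 and Ndufa4l2, 24 of 36 passed as higher. The median log2 fold change over the 38 was 0.47 against 0.02 over all genes. In 32 members every vMB library lay above every PFC library, which held for 25.4% of all genes. The exception in sign was Ndufa4l2 (-0.21, limma adjusted p = 0.557). The length slope also differed between these groups, with means of 0.0846 in PFC WT and 0.0077 in vMB WT libraries. Of the 2932 tested genes of the shortest length class, 720 passed as higher and 859 had no overlap, with a median of 0.14. With the length trend removed, 16 members passed as higher, against 3048 of all 14814 genes and 497 of the shortest class. The median over the members was then 0.34.

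Of the members with the smallest p, 5 are given with their WT libraries. Ndufb8, a distal membrane subunit, had 829, 891, 885 and 830.3 in the PFC and 1598, 1533, 1418 and 1475 in the vMB, a log2 fold change of 0.81 (SE 0.07; adjusted p = 1.08e-08). The vMB values were well clear of the PFC values. Ndufa6, the LYR-motif subunit, had 454, 466, 441 and 419.8 in the PFC and 889, 791, 783 and 723 in the vMB, a log2 fold change of 0.83 (SE 0.08; adjusted p = 7.59e-08). This was the largest tissue difference of the 38. Ndufv2, a core N module subunit, had 1134, 1039.9, 1041 and 1040.0 in the PFC and 1848, 1775, 1650.1 and 1633 in the vMB, a log2 fold change of 0.70 (SE 0.07; adjusted p = 9.56e-08). Ndufs1, the core N module subunit with the most clusters, had 882, 840.4, 880.2 and 910.4 in the PFC and 1358, 1408, 1399.9 and 1416 in the vMB, a log2 fold change of 0.67 (SE 0.06; adjusted p = 1.05e-07). Ndufa9, a Q module subunit that binds a nucleotide cofactor, had 587, 527, 563 and 542 in the PFC and 913, 867, 846 and 819 in the vMB, a log2 fold change of 0.63 (SE 0.06; adjusted p = 1.99e-07). In each of these genes the groups were apart. By contrast, Ndufb9 differed little, with means of 998 ± 30.4 and 1049 ± 75.7 and a log2 fold change of 0.07 (SE 0.07; adjusted p = 0.454).

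Per kilobase of transcript, the levels of the members had a Pearson r of 0.99 between tissues (38 genes on the log2 scale). Both tissues were divided by the same lengths and Ndufa4l2 lay far below the rest, so a high r says little. In the vMB of WT mice Ndufa4 was highest (3140.1 normalized values per kilobase), followed by Ndufb8 (2215) and Ndufb10 (1619.5), and Ndufa4l2 was lowest (22.6). Levels per kilobase depend on the transcript taken as principal: Ndufb2 and Ndufab1 have the longest ones and rank low. All 6 oligodendrocyte markers were higher in the vMB (summed levels of 133745 to 160271, against 22685 to 66254 in the PFC), and of 6 neuron markers 3 were lower (Rbfox3, Syt1 and Map2) and 1 was higher (Tubb3), with summed levels of 37352 to 38381, against 50202 to 57302 in the PFC. Of 4 choroid plexus markers 3 were higher in the vMB, with summed levels of 323 to 9646 against 28.2 to 75.4 in the PFC. Astrocyte markers were higher for 3 of 6 and lower for 1, and microglia markers were lower for 5 of 6. Of all 14814 genes, 3256 passed as higher and 3201 as lower. The part of these markers in the tissue difference was not tested. Fewer cells of a type and less RNA per cell cannot be told apart in bulk tissue.

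**Figure D5:**
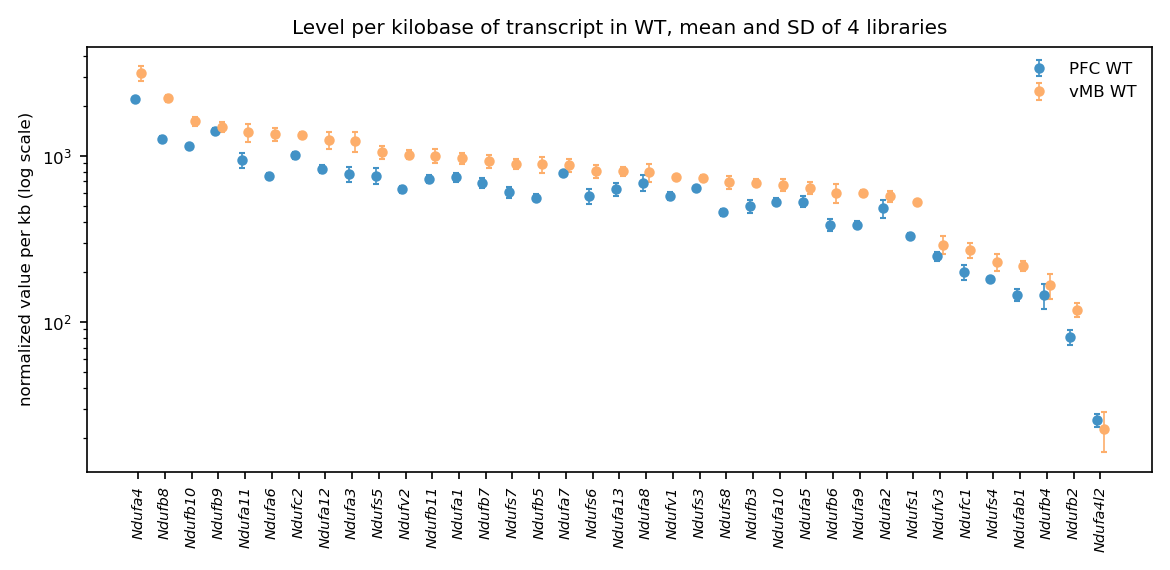
Level per kilobase of transcript of 37 of the 38 members in WT libraries (log axis), mean and SD of 4 libraries, PFC in blue and vMB in orange, ordered by the vMB level. The vMB mean is above the PFC mean for 36 of the 37 members plotted, and Ndufa4 is highest and Ndufa4l2 lowest in both tissues.

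The 7 complex I subunits encoded by mitochondrial DNA went the other way between tissues: all 7 were lower in the vMB than in the PFC of WT mice and 4 passed (mt-Nd4, mt-Nd4l, mt-Nd5 and mt-Nd6), with a median log2 fold change of -0.47. Of all 14814 tested genes, 3201 passed as lower in this comparison. By genotype, 1 of 7 passed as higher in the vMB, where 1.23% of all genes did, with a median of 0.11 over the 7. The gene that passed was mt-Nd3, with 12581, 8575, 9469 and 8504 in WT and 12505, 14305, 11715 and 13373 in Mutant libraries. It had a log2 fold change of 0.42 (SE 0.12, limma adjusted p = 0.0496). Its groups overlapped. In the PFC 0 of 7 passed, and 0 were under an unadjusted p of 0.05 (limma), where 17.1% of all genes were. The transcripts of mitochondrial DNA as a whole made up 13.0% to 14.8% of the summed value in vMB WT, 14.2% to 16.9% in vMB Mutant, 15.5% to 17.9% in PFC WT and 15.2% to 19.9% in PFC Mutant libraries.

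Of 14 complex I assembly factors, which build the complex without staying in it, 0 passed in either tissue. At an unadjusted p below 0.05 (limma) there were 5 in the vMB and 0 in the PFC. Of the 14814 tested genes, 3101 were below it in the vMB and 2532 in the PFC. The assembly factors had median log2 fold changes of 0.16 in the vMB and 0.04 in the PFC. Of all genes, 1.23% passed as higher in the vMB of Mutant mice. Of 40 nuclear subunits of respiratory complexes II to V, 13 did and 0 were lower, with a median log2 fold change of 0.33. They were 4 genes of complex III (Uqcrq, Uqcrh, Uqcr10 and Uqcr11), 4 of complex IV (Cox6b1, Cox6c, Cox7a2 and Cox7b) and 5 of complex V (Atp5e, Atp5g1, Atp5h, Atp5j2 and Atp5k). Their log2 fold changes ran from 0.38 (Cox7b) to 0.47 (Atp5j2). In the PFC 1 of 40 passed, Cox6c, where 0.0473% of all genes passed as higher, and the median of the 40 was 0.23. With the length trend removed, 4 of 40 passed in the vMB, where 0.459% of all genes passed as higher, and 0 in the PFC. In WT mice 23 of the 40 were higher in the vMB than in the PFC and 2 were lower. Of all 14814 genes, 3256 passed as higher and 3201 as lower in that comparison.

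Nrf1, Yy1, Gabpa and the coactivators Ppargc1a and Ppargc1b were among 8 regulators of nuclear mitochondrial genes. Of these 8, 1 in the vMB and 2 in the PFC had an unadjusted p below 0.05 (limma). Of the 14814 tested genes, 3101 and 2532 did, respectively. Among the 8 regulators, 0 passed in either tissue. Their log2 fold changes in the vMB ranged from -0.32 (Pprc1) to 0.36 (Tfam, the mitochondrial DNA packaging factor; adjusted p = 0.0487, under the minimum fold). Nrf1 was 118 ± 24.9 in WT and 119 ± 18.8 in Mutant libraries of the vMB, and Yy1 was 357 ± 21.4 and 364 ± 10.2. Of the 9 cell type lists, 1 did not overlap between genotypes in its summed level: the 6 endothelial markers summed to 914 to 1366 in vMB WT and 604 to 910.2 in vMB Mutant libraries, and 4 of the 6 were lower (Cdh5, Tek, Pecam1 and Flt1). Of the 14814 tested genes, 299 passed as lower and 182 as higher in the vMB. Of the 6 microglia markers, 1 was higher in the vMB of Mutant mice (P2ry12, 0.38 on the log2 scale). The microglia list had 3 positive and 3 negative changes with a median of -0.02. The part of these marker differences in the complex I values was not tested. The sums of the neuron, dopamine neuron and oligodendrocyte markers overlapped between genotypes in both tissues.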

How the data were processed

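Poly-A RNA of 16 libraries was sequenced single-end. Per the labels and the study's methods, reads were trimmed with Cutadapt 1.8.3, aligned with TopHat 2.0.10 and counted with HTSeq 0.6.1p1. The deposited values are DESeq2-normalized signal on a linear scale, made by the authors; they are not whole reads, so raw depth is not known, and the summed value per library was 8687620 to 10026466. The sources name a human build although the gene identifiers are mouse, so the build of the counts is not known; positions and lengths come from GENCODE M21 on GRCm38, promoters from RefSeq. The authors' own fold changes and p-values also in the table were not used.

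Genes with a mean of at least 10 (14814) were tested with limma 3.58.1 (R 4.3.3, mean-variance trend) on log2(value + 1), with 1 coefficient per tissue and genotype over all 16 libraries and Benjamini-Hochberg adjustment over all genes. A fold change on this scale understates that of low genes. A length trend was removed, where stated, by loess (span 0.3) of each library's log2 deviations on log2 exon length. Figures and summaries used Python 3.11.15 and pandas 2.3.3, and the fit was tested on simulated data. Values were given per library for members that passed in a single tissue (at most 12) and for those with the 6 smallest p between tissues, by group for core subunits, Ndufa4 and Ndufa4l2, and by counts otherwise; the PFC members with values were chosen after they were seen. The values of 1 member are not reported here and are left out of the figures by gene, though it is in every count, median and sum. Alternatives were other pseudocounts, filters, scalings, folds, blocks, length measures and leaving out each library. The members and gene lists were chosen with earlier results of these data known.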

Additional observations from a re-analysis of the deposited data

Results flagged for a closer look

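In 4 of 88 groups of 4 libraries tested (84 of 21 single members and 4 of the members' summed share), 1 library stood far from the other 3 (Dixon's test), where chance gives about 1 in 20. The lowest PFC Mutant library was set apart for Ndufa2 (306.3), Ndufa4 (1629) and Ndufb5 (679.9), and the highest PFC WT library for Ndufv2 (1134).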

How the results depend on the processing

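The count of 12 members that passed in the vMB became 3 with the length trend removed, 0 with it removed and a replicate block, 1 with the trend over the principal transcript (chosen after seeing the data), 24 with no minimum fold and 0 at a fold of 1.5, and it ran from 5 to 21 when 1 library was left out. The 6 over both tissues became 1, 1, 1, 31 and 0 under the same settings, with 3 to 10 when 1 library was left out. The 25 between tissues became 16, 16, 15 and, at a fold of 1.5, 9, with 24 to 27 when 1 library was left out. The PFC count was 0 throughout, apart from 0 to 2 when 1 library was left out, and the interaction count was 0 throughout. The replicate block alone gave 10 in the vMB and 5 over both tissues; replicate numbers did not pair the libraries. Signs turned for Ndufa10 in the vMB (0.0101 at the same upper quartile, and from -0.0674 to 0.0368 when 1 library was left out, above 0 without WT 1 or Mutant 4), Ndufc2 in the PFC (-0.0463 with the length trend removed, with or without the block, and -0.0717 over the principal transcript), Ndufs1 in the PFC (-9.2e-05 to 0.0903 when 1 library was left out, lowest without Mutant 3), and, over the principal transcript, Ndufs3 (-0.0095 in the PFC, -0.0047 in the vMB) and Ndufv1 (-0.0338 in the vMB). The cause of these shifts was not tested. Without counts, precision per gene from depth is not known.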
